A study of Mus musculus with 45 samples.

Results

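The genes described here mark the cells of brain vessels in the cortex, hippocampus and striatum of Shank3-mutant mice. They are 35 of the 18135 genes in the deposited table, chosen by name and matched by Ensembl identifier, and the mean of each was 10 or more normalized counts in every region. Of these, 26 are endothelial genes, with Cldn5, Pecam1 and Flt1 as the leading markers, and 9 are listed as mural genes, with Pdgfrb, Rgs5 and Acta2. Transcripts were measured by stranded mRNA sequencing in 45 samples of male C57BL/6J mice at 13 weeks of age, with 5 samples for each of wild-type (WT), heterozygous (Shank3-HT) and homozygous (Shank3-HM) mice in the prefrontal cortex (termed cortex), hippocampus and striatum. Both mutant groups carry the Shank3 allele that, per the study's methods, lacks exons 14 to 16, on 1 chromosome in Shank3-HT mice and on both in Shank3-HM mice, which the labels call knock-out. The labels do not say whether samples of the 3 regions come from the same mice. The paper counts mice per group and names the regions together, which can be read as the same mice in every region. It does not state this outright.

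Brain capillaries are tubes of endothelial cells that are sealed by tight junctions, take up sugars, lipids and hormones through transporters, and pump foreign compounds back into the blood, which together make the blood-brain barrier. Endothelial cells are kept and remodelled by the VEGF, angiopoietin and apelin pathways and are specified by ETS and SOX factors. Mural cells sit on their outer side: pericytes, which are recruited through PDGF receptor beta, cover capillaries, and smooth muscle cells, which carry contractile proteins, surround arterioles. Cspg5, a neuroglycan made mainly by neurons and glial precursors, stands among the mural genes of the list but is not a recognised marker of mural cells, and it is described apart from them.

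The deposited values are normalized counts per gene, scaled by the authors over all samples, with sums of 26118607 to 29568983 per sample, and the sequencing depth is unknown. Differences are given on the scale of log2(normalized count + 1) with their standard errors, and adjusted p values are from limma with Benjamini-Hochberg adjustment over all genes tested in a fit. Differences with an adjusted p under 0.05 are said to have passed the test. As nothing in the labels says how the samples were collected, p values measure the spread between samples of a group. Shank3 was lower in all mutant samples than in all WT samples of a region, at 76.8%, 74.1% and 70.8% of the WT level in Shank3-HT and at 50.7%, 47.9% and 46.3% in Shank3-HM (cortex, hippocampus and striatum). A pair of libraries stood apart. The cortex sample 2 of Shank3-HM mice had a sum of 26914 over 6 striatal genes, where the other cortex samples had 2761 to 3951, and the striatum sample 5 of Shank3-HT mice had a sum of 70853 over 10 choroid plexus genes, where the other striatum samples had 478 to 1630. Choroid plexus genes also ranged from 1431 to 127354 among the hippocampus samples.

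Sequences upstream of these genes were read from RefSeq promoters (GRCm38.p6), which hold 250 bases before and 50 bases after a transcript start and were found for 23 of the 35 genes, with 30 promoters in all. Shown are 4 promoters of genes on which the results turn, Cldn5 for the endothelial junction, Apln for the endothelial gene with the largest difference between regions of WT mice, Ackr1 for the gene whose genotype effect differed between regions, and Acta2 for smooth muscle. Capitals mark, on either strand, AGGAAG, the core of many ETS sites, and CArG-like boxes, which are the sites of serum response factor in contractile genes and were searched for as CC and GG around a run of A and T with at most 1 other base.
Cldn5, chr16:18776597-18776896, plus strand: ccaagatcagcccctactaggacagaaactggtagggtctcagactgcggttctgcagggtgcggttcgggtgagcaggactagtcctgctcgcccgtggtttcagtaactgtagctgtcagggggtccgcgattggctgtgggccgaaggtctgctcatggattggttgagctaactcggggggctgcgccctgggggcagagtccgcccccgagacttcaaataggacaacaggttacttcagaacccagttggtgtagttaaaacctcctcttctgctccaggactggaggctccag
Apln, chrX:48034804-48035103, minus strand: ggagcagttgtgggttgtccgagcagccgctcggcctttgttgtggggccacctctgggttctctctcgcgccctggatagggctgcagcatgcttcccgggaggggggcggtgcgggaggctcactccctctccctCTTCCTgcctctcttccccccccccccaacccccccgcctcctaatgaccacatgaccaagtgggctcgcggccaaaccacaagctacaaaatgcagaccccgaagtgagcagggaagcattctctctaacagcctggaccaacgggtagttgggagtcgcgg
Ackr1, chr1:173333454-173333753, minus strand: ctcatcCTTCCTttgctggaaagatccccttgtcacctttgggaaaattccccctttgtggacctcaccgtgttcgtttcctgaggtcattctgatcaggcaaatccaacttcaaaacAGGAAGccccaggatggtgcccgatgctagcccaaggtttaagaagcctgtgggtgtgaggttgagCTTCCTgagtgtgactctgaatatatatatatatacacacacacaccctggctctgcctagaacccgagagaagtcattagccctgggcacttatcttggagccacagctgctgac
Acta2, chr19:34255324-34255623, minus strand: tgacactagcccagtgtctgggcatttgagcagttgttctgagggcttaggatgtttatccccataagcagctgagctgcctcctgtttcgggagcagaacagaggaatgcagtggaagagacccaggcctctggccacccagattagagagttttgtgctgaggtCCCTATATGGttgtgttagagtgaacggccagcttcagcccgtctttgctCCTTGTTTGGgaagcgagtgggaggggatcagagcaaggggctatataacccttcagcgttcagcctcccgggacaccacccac

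The pattern AGGAAG was found in 17 of the 30 promoters, which belong to 14 of the genes, and in 35.4% of all 32851 promoters of the same length. Ackr1 had 3 of these matches, Apln had 1 and Cldn5 had none. A CArG-like box was found in 6 of the 30 promoters and in 9.98% of all promoters, with a pair of boxes in Acta2, the first from base -84 to -75 and the second from -34 to -25 relative to the start. AACAAT, the core of many SOX sites, was found in 4 of the 30 promoters and in 10.7% of all. The CArG-like form was chosen after the sequences were seen, and a match is a description of the letters and does not show that a factor binds.

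Levels between genes were compared per kilobase of the longest coding transcript in GENCODE M21. In the cortex of WT mice, Ly6c1, a surface protein of endothelial cells, had the highest level with 1050 ± 75.9 normalized counts per kb (SD, n = 5), followed by Cspg5 with 1010 ± 47.1, and by Slc2a1, the glucose transporter of the barrier, with 978 ± 149, and these 3 ranges of mean ± SD overlapped. The pericyte genes Rgs5 (836 ± 74.0 per kb) and Vtn (744 ± 64.0 per kb) came next. Cldn5 was at 527 ± 77.8, Flt1 at 409 ± 41.9 and Pecam1 at 171 ± 25.0 per kb, while the smooth muscle genes Acta2, Tagln and Myh11 were at 176 ± 37.2, 136 ± 48.5 and 64.3 ± 13.8 per kb. At the low end of the list were the aminopeptidase gene Anpep (40.6 ± 17.4 per kb), the transcription factor gene Erg (54.1 ± 6.95 per kb) and the pericyte gene Higd1b (59.8 ± 21.1 per kb).

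The spread between samples of a group differed among the genes. The median coefficient of variation over the 9 groups was 10.1% for all genes tested, 10.2% for the median endothelial gene and 26.1% for the median of the 3 smooth muscle genes. Ackr1 (5.73%), Cspg5 (5.81%) and Apln (6.92%) varied least, and Acta2 (25.2%), Myh11 (26.1%), Tagln (30.0%) and Anpep (35.9%) varied most.

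Cldn5 (chromosome 16, 18776847 to 18778262, plus strand, GRCm38) encodes claudin 5, the main tight junction protein of brain endothelium. Cldn5 in the cortex was at 647, 634, 801, 754 and 898 normalized counts in the 5 WT samples, at 719, 605, 761, 703 and 745 in the Shank3-HT samples and at 536, 622, 550, 616 and 755 in the Shank3-HM samples. Cldn5 in the hippocampus was at 781, 588, 679, 667 and 676 normalized counts in the 5 WT samples, at 718, 543, 608, 664 and 590 in the Shank3-HT samples and at 508, 543, 523, 552 and 525 in the Shank3-HM samples. Cldn5 in the striatum was at 600, 631, 701, 648 and 693 normalized counts in the 5 WT samples, at 718, 665, 675, 607 and 675 in the Shank3-HT samples and at 484, 558, 577, 626 and 481 in the Shank3-HM samples. In the hippocampus all 5 Shank3-HM samples, with a mean of 530 ± 17.1 (SD), lay below all 5 WT samples, with a mean of 678 ± 68.4, while the groups overlapped in the cortex and striatum. The Shank3-HM samples had the lowest mean in each region, at 82.6% of the WT level in cortex, 78.5% in hippocampus and 83.0% in striatum. None of these differences passed the test, which were -0.28 ± 0.105 for the cortex (adjusted p = 0.878), -0.35 ± 0.0796 for the hippocampus (adjusted p = 0.732) and -0.27 ± 0.0777 for the striatum (adjusted p = 0.309).

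Pecam1 (chromosome 11, 106654217 to 106750628, minus strand) encodes an adhesion protein between endothelial cells. Pecam1 in the cortex was at 469, 554, 574, 676 and 668 normalized counts in the 5 WT samples, at 539, 552, 560, 590 and 595 in the Shank3-HT samples and at 458, 551, 570, 606 and 642 in the Shank3-HM samples. Pecam1 in the hippocampus was at 458, 523, 468, 710 and 543 normalized counts in the 5 WT samples, at 477, 552, 545, 553 and 458 in the Shank3-HT samples and at 447, 560, 599, 482 and 462 in the Shank3-HM samples. Pecam1 in the striatum was at 543, 615, 549, 620 and 552 normalized counts in the 5 WT samples, at 471, 630, 576, 504 and 663 in the Shank3-HT samples and at 452, 569, 599, 538 and 548 in the Shank3-HM samples. All genotypes overlapped in all regions, and the regions overlapped as well. The means of the 9 groups lay between 510 and 588, and the differences between Shank3-HM and WT samples were -0.053 ± 0.0997, -0.075 ± 0.113 and -0.092 ± 0.0955, respectively, for cortex, hippocampus and striatum.

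Flt1 (chromosome 5, 147561604 to 147726011, minus strand) encodes VEGF receptor 1, a decoy that binds VEGF away from the signalling receptor. Flt1 in the cortex was at 2505, 2926, 2531, 2978 and 3160 normalized counts in the 5 WT samples, at 2584, 2979, 2791, 2630 and 2969 in the Shank3-HT samples and at 2181, 2666, 2452, 2822 and 2418 in the Shank3-HM samples. Flt1 in the hippocampus was at 1716, 2296, 1998, 2057 and 2021 normalized counts in the 5 WT samples, at 1963, 2293, 2064, 2011 and 1891 in the Shank3-HT samples and at 1800, 2248, 1998, 1836 and 1822 in the Shank3-HM samples. Flt1 in the striatum was at 2386, 2902, 2613, 2614 and 2456 normalized counts in the 5 WT samples, at 2382, 2984, 2723, 2375 and 2521 in the Shank3-HT samples and at 2193, 2653, 2466, 2235 and 2295 in the Shank3-HM samples. The genotypes overlapped in all regions. All 5 WT samples of the hippocampus lay below all WT samples of the cortex and of the striatum, with means of 2017 ± 206, 2820 ± 289 and 2594 ± 199.

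Pdgfrb (chromosome 18, 61045150 to 61085061, plus strand) encodes the receptor through which endothelial PDGFB recruits pericytes. Pdgfrb in the cortex was at 776, 919, 760, 798 and 896 normalized counts in the 5 WT samples, at 811, 697, 818, 748 and 878 in the Shank3-HT samples and at 659, 702, 680, 708 and 745 in the Shank3-HM samples. Pdgfrb in the hippocampus was at 706, 861, 702, 848 and 846 normalized counts in the 5 WT samples, at 813, 807, 754, 781 and 686 in the Shank3-HT samples and at 748, 841, 806, 732 and 624 in the Shank3-HM samples. Pdgfrb in the striatum was at 767, 923, 904, 887 and 870 normalized counts in the 5 WT samples, at 804, 932, 970, 829 and 960 in the Shank3-HT samples and at 767, 914, 921, 898 and 767 in the Shank3-HM samples. In the cortex the 5 Shank3-HM samples (699 ± 32.3) lay below the 5 WT samples (830 ± 72.8), a difference of -0.24 ± 0.0719 that did not pass the test (adjusted p = 0.878), and the groups overlapped in the other two regions.

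Rgs5 (chromosome 1, 169655501 to 169695813, plus strand), a regulator of G protein signalling, is a common marker of brain pericytes. Rgs5 in the cortex was at 3179, 3798, 3073, 3437 and 3637 normalized counts in the 5 WT samples, at 2978, 3533, 3631, 2827 and 3455 in the Shank3-HT samples and at 2942, 3062, 3088, 3584 and 2988 in the Shank3-HM samples. Rgs5 in the hippocampus was at 2581, 3122, 2736, 2645 and 2729 normalized counts in the 5 WT samples, at 3138, 2759, 2740, 2796 and 2894 in the Shank3-HT samples and at 2996, 2918, 2835, 2710 and 2794 in the Shank3-HM samples. Rgs5 in the striatum was at 3649, 3632, 3496, 3175 and 2884 normalized counts in the 5 WT samples, at 3220, 3743, 3494, 3015 and 3251 in the Shank3-HT samples and at 2903, 3512, 3509, 3171 and 3392 in the Shank3-HM samples. The genotypes overlapped in every region. The hippocampus of WT mice had the lowest mean, 2763 ± 211, where the cortex had 3425 ± 303 and the striatum 3367 ± 331, with some overlap between single samples.

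Acta2 (chromosome 19, 34241090 to 34255590, minus strand) encodes smooth muscle actin of arterioles. Acta2 in the cortex was at 353, 332, 270, 361 and 479 normalized counts in the 5 WT samples, at 330, 184, 341, 249 and 462 in the Shank3-HT samples and at 310, 233, 186, 408 and 498 in the Shank3-HM samples. Acta2 in the hippocampus was at 750, 820, 394, 891 and 506 normalized counts in the 5 WT samples, at 665, 752, 628, 734 and 360 in the Shank3-HT samples and at 637, 804, 631, 396 and 351 in the Shank3-HM samples. Acta2 in the striatum was at 288, 450, 284, 377 and 291 normalized counts in the 5 WT samples, at 352, 360, 350, 284 and 390 in the Shank3-HT samples and at 249, 418, 398, 404 and 325 in the Shank3-HM samples. The samples of a group were spread widely, and genotypes overlapped in all regions. The hippocampus stood out by level, with a mean of 672 ± 213 in WT mice against 359 ± 75.7 in the cortex and 338 ± 73.7 in the striatum.

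**Figure D1:**
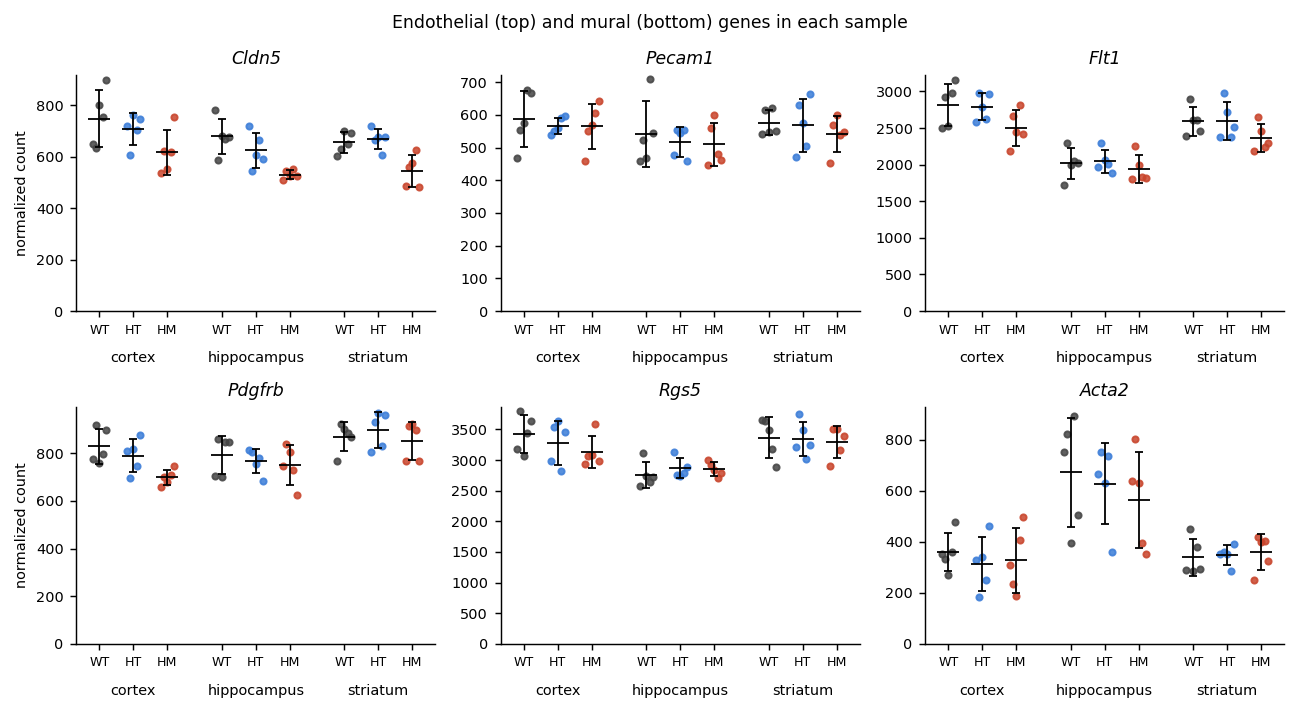
Normalized counts of 3 endothelial genes (top) and 3 mural genes (bottom) by region and genotype. Points are samples, bars are the mean ± SD of 5 samples, and the vertical axes start at 0. Cldn5 in the hippocampus of Shank3-HM mice lies below the WT samples, and Acta2 is highest and most widely spread in the hippocampus.

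Levels were next compared between the regions of WT mice in a fit of all 9 groups over 16708 genes. In the hippocampus, 9 of the 26 endothelial genes were lower than in the cortex and none was higher, while of the 8 mural genes other than Cspg5 2 were lower and 3 were higher, and Cspg5 was lower. Among all genes, 23.3% were lower and 23.3% were higher in the hippocampus, and the median difference was -0.19 for the endothelial genes, 0.17 for the 8 mural genes (-0.07 with Cspg5 counted) and 0.0056 for all genes tested. In these whole-tissue samples fewer cells of a type and less RNA per cell cannot be told apart.

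The endothelial genes that were lower in the hippocampus came from several roles. Of the genes of growth factor signalling, Apln, which encodes the peptide apelin that endothelial tip cells release, was at 486 ± 40.5 in the hippocampus and 958 ± 76.2 in the cortex, a difference of -0.98 ± 0.0737 (adjusted p = 8.31e-15) and the largest among the 35 genes in this comparison. Flt1 (-0.48 ± 0.0789, adjusted p = 1.92e-06), the angiopoietin receptor gene Tek (-0.35 ± 0.0980, adjusted p = 0.00264) and the TGF-beta co-receptor gene Eng (-0.29 ± 0.105, adjusted p = 0.0221) were lower too. The signalling VEGF receptor gene Kdr (447 ± 56.7 against 478 ± 68.7) and the orphan receptor gene Tie1 (330 ± 47.1 against 343 ± 21.7) did not pass the test. The Apln gene lies on chromosome X from 48025146 to 48034853 on the minus strand. The share of the reads of Apln, and of the other endothelial genes, that comes from endothelial cells was not tested.

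Of the barrier transporters, the organic anion carrier gene Slco1a4 was at 1453 ± 185 in the hippocampus and 1936 ± 246 in the cortex (-0.41 ± 0.0959, adjusted p = 3.85e-04), and the efflux pump gene Abcb1a was at 1103 ± 89.3 and 1436 ± 114 (-0.38 ± 0.0790, adjusted p = 9.54e-05). The thyroid hormone carrier gene Slco1c1 (1762 ± 354 against 1765 ± 138), the lipid carrier gene Mfsd2a (656 ± 64.4 against 679 ± 146), Slc2a1 (2839 ± 434 against 3188 ± 487) and the efflux pump gene Abcg2 (535 ± 44.8 against 562 ± 28.0) did not pass the test. Abcb1a has a close paralog, Abcb1b, and reads that the 2 genes share could have been split between them by the quantification, as could those of Ly6c1 and Ly6c2.

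Among the junction genes, Esam, an adhesion molecule of endothelial cells, was lower in the hippocampus (334 ± 34.5 against 440 ± 34.1, -0.40 ± 0.10, adjusted p = 9.49e-04), while Cldn5, Pecam1, the VE-cadherin gene Cdh5 and the sialomucin gene Emcn did not pass the test. Of the remaining surface and secreted proteins, Ackr1 (587 ± 42.6 against 812 ± 71.7, -0.46 ± 0.0636, adjusted p = 5.76e-08) and Ly6c1 (734 ± 83.9 against 886 ± 64.0, -0.28 ± 0.0724, adjusted p = 0.00155) were lower. Ackr1 partly overlaps the gene Cadm3 on the same strand, as described below. Cadm3 was at 10342 ± 288.5 in the hippocampus and 12639 ± 561 in the cortex. Ackr1 was at 4.959% to 6.437% and at 5.646% to 7.145% of Cadm3, ranges that overlapped. The part of Cadm3 reads in the regional differences of Ackr1 was not tested. The clotting factor gene Vwf, a marker of larger vessels, was at 753 ± 239 against 633 ± 66.1 and did not pass the test. The 3 transcription factor genes Erg, Sox17 and Sox18 did not pass it either, nor did Egfl7, Itm2a and Ly6a, and the differences of the factors were -0.31 ± 0.142, -0.21 ± 0.210 and 0.070 ± 0.205.

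Mural genes went in both directions. Acta2 was higher in the hippocampus than in the cortex by 0.86 ± 0.250 (adjusted p = 0.00402), Tagln, which encodes the actin-binding protein transgelin, by 0.62 ± 0.260 (adjusted p = 0.0470), and the pericyte and plasma protein gene Vtn by 0.42 ± 0.125 (1742 ± 265 against 1297 ± 112, adjusted p = 0.00552). Myh11, the smooth muscle myosin gene, was at 590 ± 190 against 421 ± 90.5 and did not pass the test (0.45 ± 0.231, adjusted p = 0.110). The pericyte genes Rgs5 (-0.31 ± 0.0730, adjusted p = 5.04e-04) and Higd1b (29.5 ± 8.24 against 43.9 ± 15.5, -0.53 ± 0.219, adjusted p = 0.0426) were lower, and Pdgfrb (-0.068 ± 0.0791) and Anpep (-0.15 ± 0.292) did not pass the test. Cspg5 was lower, with a difference of -0.78 ± 0.0653 (4659 ± 516 against 7949 ± 370, adjusted p = 2.07e-13).

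Markers of other cell types moved with this comparison. The summed level of 13 genes of vascular fibroblasts and meninges was 5538 to 15182 in the hippocampus of WT mice, 3469 to 5049 in the cortex and 1692 to 2288 in the striatum, and none of the 13 genes was at 0. The summed level of 10 choroid plexus genes was 3341 to 127354, 104 to 187 and 478 to 1630, respectively. The hippocampus and cortex also did not overlap in the sums of 8 neuronal genes (136929 to 161819 against 209904 to 223012), 6 astrocyte genes (96016 to 122513 against 129539 to 157938) and 6 oligodendrocyte genes (138104 to 150702 against 64424 to 84137). Nor did they overlap in the sum of 4 oligodendrocyte precursor genes (4668 to 5268 against 3698 to 4415). The part of these cell types in the differences of endothelial genes, smooth muscle genes and Cspg5 was not tested.

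Between striatum and cortex of WT mice, 3 of the 26 endothelial genes and Cspg5 were lower in the striatum, none of the 8 other mural genes passed and none of the 35 was higher, where 29.3% of all genes were lower and 30.0% were higher. The genes were Egfl7, a secreted endothelial protein and the host gene of miR-126 (421 ± 53.8 against 649 ± 67.2, -0.63 ± 0.121, adjusted p = 1.96e-05), Apln (814 ± 55.6 against 958 ± 76.2, -0.23 ± 0.0737, adjusted p = 0.00586), Kdr (391 ± 34.3 against 478 ± 68.7, -0.28 ± 0.0953, adjusted p = 0.0103) and Cspg5 (-0.28 ± 0.0653, adjusted p = 2.79e-04). The samples of Egfl7 did not overlap, from 349 to 480 in the striatum and from 570 to 721 in the cortex. Cldn5 was at 88.3% of the cortical level in the striatum (-0.18 ± 0.0908, adjusted p = 0.0872), Flt1 at 92.2% and Pecam1 at 98.6%, and these did not pass the test. Nor did Acta2 (-0.087 ± 0.250), Tagln (0.27 ± 0.260) and Myh11 (-0.10 ± 0.231). Here too the regions did not overlap in the sums of neuronal (104728 to 119278 against 209904 to 223012), astrocyte (100014 to 123684 against 129539 to 157938) and oligodendrocyte genes (180167 to 238758 against 64424 to 84137). The sum of oligodendrocyte precursor genes did not overlap either (4581 to 5461 against 3698 to 4415). The part of these cell types in the differences was not tested.

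Between striatum and hippocampus of WT mice, 10 endothelial genes were higher in the striatum and 1 was lower, 2 of the 8 mural genes were higher and 3 lower, and Cspg5 was higher, where 27.8% of all genes were higher and 28.3% lower. Apln (0.74 ± 0.0737, adjusted p = 1.06e-11), Ackr1 (0.36 ± 0.0636, adjusted p = 5.88e-06), Flt1 (0.37 ± 0.0789, adjusted p = 1.19e-04) and Emcn (227 ± 34.8 against 159 ± 19.1, 0.50 ± 0.129, adjusted p = 9.51e-04) were among the endothelial genes that were higher, with Ly6c1, Abcb1a, Slco1a4, Eng, Esam and Tek. Egfl7 was lower (-0.47 ± 0.121, adjusted p = 9.85e-04). Ackr1 was at 6.714% to 7.437% of its overlapping gene Cadm3 in the striatum and at 4.959% to 6.437% in the hippocampus, ranges that did not overlap. Of the mural genes, Acta2 (-0.95 ± 0.250, adjusted p = 0.00129), Myh11 (-0.55 ± 0.231, adjusted p = 0.0396) and Vtn (-0.38 ± 0.125, adjusted p = 0.00997) were lower in the striatum, and Rgs5 (0.28 ± 0.0730, adjusted p = 0.00104) and Higd1b (0.67 ± 0.219, adjusted p = 0.00858) were higher. Cspg5 was higher too (0.50 ± 0.0653, adjusted p = 1.46e-08). These regions did not overlap in the sums of neuronal (104728 to 119278 in the striatum against 136929 to 161819), oligodendrocyte (180167 to 238758 against 138104 to 150702), microglial (9791 to 11666 against 7176 to 8785) and fibroblast and meningeal genes (1692 to 2288 against 5538 to 15182), nor in those of the choroid plexus, and their part in these differences was not tested.

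**Figure D2:**
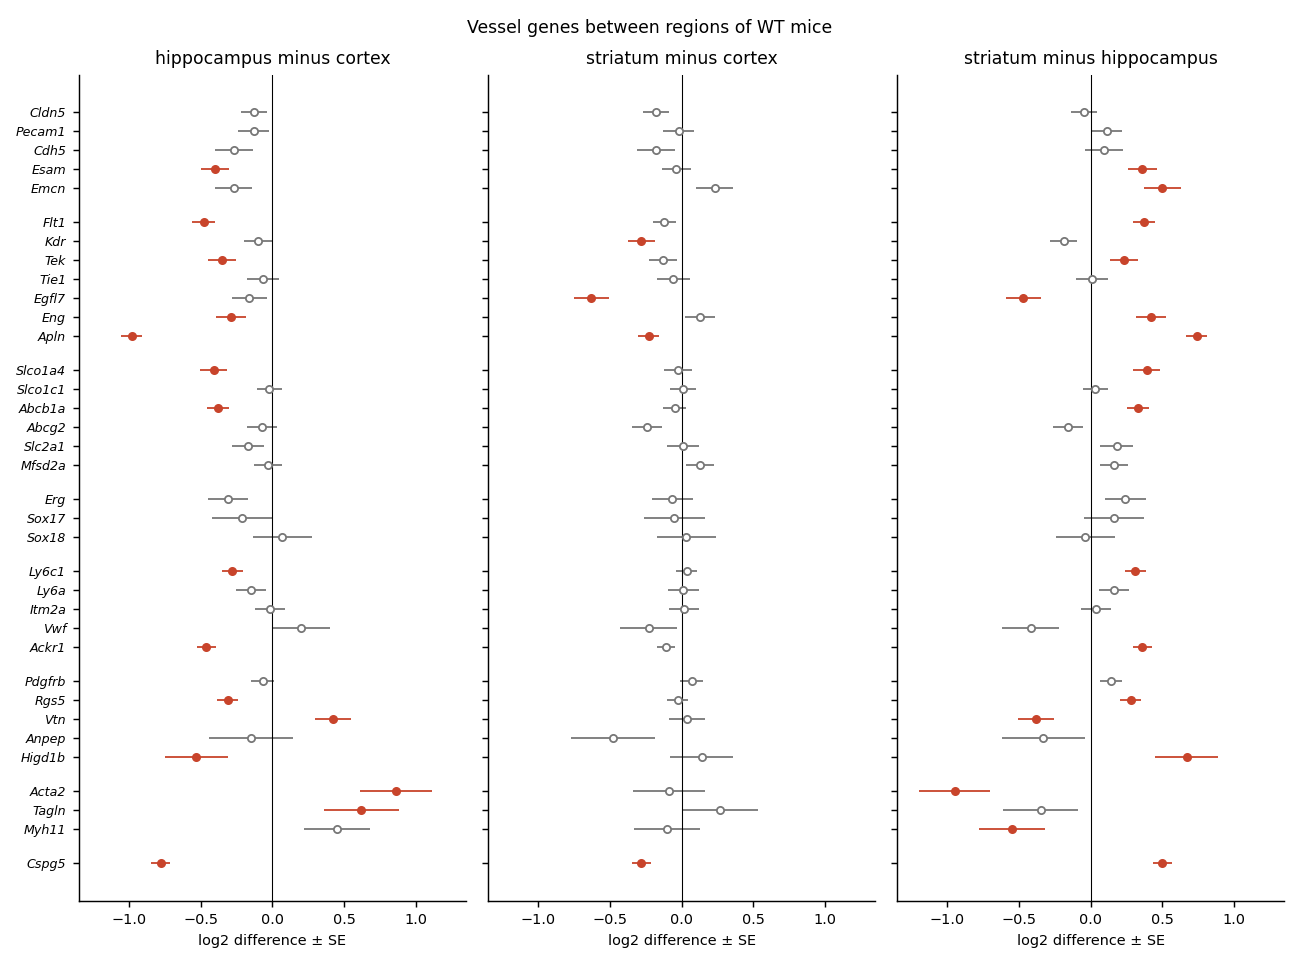
Log2 differences between regions of WT mice, with standard errors, for the 35 genes grouped by role from top to bottom (junction, growth factor signalling, transport, transcription factors, other endothelial, pericyte, smooth muscle and Cspg5). Filled red points passed the test (adjusted p under 0.05, limma). Of the endothelial genes 9 are lower in the hippocampus than in the cortex, and Acta2 and Tagln are higher.

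The same comparisons were made within the mutant mice. Between hippocampus and cortex, 4 of the 35 genes were higher and 12 lower in the hippocampus of Shank3-HT mice (22.9% and 22.1% of all genes), and 4 were higher and 10 lower in Shank3-HM mice (21.0% and 21.2%). Between striatum and cortex, 4 were higher and 4 lower in Shank3-HT mice (29.5% and 29.1%) and 3 higher and 3 lower in Shank3-HM mice (28.8% and 28.6%). Between striatum and hippocampus, 15 were higher and 5 lower in Shank3-HT mice (26.4% and 27.2%) and 14 higher and 5 lower in Shank3-HM mice (26.7% and 28.2%). Without the pair of libraries that stand apart these counts were 4 and 12, 2 and 10, 3 and 4, 4 and 4, 15 and 2, and 14 and 5, and the genes that no longer passed were Kdr and Myh11 (hippocampus and cortex, Shank3-HM), Pdgfrb (striatum and cortex, Shank3-HT) and Egfl7, Myh11 and Vtn (striatum and hippocampus, Shank3-HT). Those that passed in addition were Emcn, which was higher, and Tek, which was lower (both striatum and cortex, Shank3-HM).

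In the hippocampus of Shank3-HT mice, Apln, Cspg5, Abcb1a, Flt1, Ackr1, Slco1a4, Esam, Erg, Eng, Ly6c1, Rgs5 and Egfl7 were lower than in the cortex, and Acta2, Myh11, Vtn and Tagln were higher. In that of Shank3-HM mice, Apln, Cspg5, Flt1, Ackr1, Abcb1a, Tek, Ly6c1, Esam, Eng and Erg were lower, and Acta2, Vtn, Kdr and Myh11 were higher. Apln had the smallest p in both, with -0.95 ± 0.0737 (adjusted p = 2.23e-14) and -0.73 ± 0.0737 (adjusted p = 5.20e-11). Between striatum and cortex, Egfl7, Cspg5, Abcg2 and Anpep were lower and Emcn, Tagln, Higd1b and Pdgfrb higher in Shank3-HT mice, and Cspg5, Egfl7 and Abcg2 were lower and Ackr1 (0.37 ± 0.0636, adjusted p = 3.59e-06), Tagln and Pdgfrb higher in Shank3-HM mice. Between striatum and hippocampus, the genes higher in the striatum of both mutant groups were Apln, Ackr1, Eng, Cspg5, Ly6c1, Slco1a4, Abcb1a, Flt1, Esam, Higd1b, Emcn, Rgs5 and Pdgfrb, with Erg and Slco1c1 in Shank3-HT and Ly6a in Shank3-HM mice, and Apln had the smallest p (0.89 ± 0.0737 and 0.88 ± 0.0737). Lower there were Acta2 and Anpep in both, with Egfl7, Vtn and Myh11 in Shank3-HT mice and Abcg2, Kdr and Vwf in Shank3-HM mice.

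Lower in the hippocampus than in the cortex in all 3 genotypes were 7 endothelial genes, Flt1, Esam, Ly6c1, Abcb1a, Eng, Ackr1 and Apln, and Cspg5 (16.7% of all genes), while Vtn and Acta2 were higher in all 3 (16.2%). Egfl7, with differences of -0.63 (WT), -0.61 (Shank3-HT) and -0.39 (Shank3-HM), and Cspg5, with -0.28, -0.31 and -0.28, were lower in the striatum than in the cortex in all 3 genotypes (23.8% of all genes), and no gene of the list was higher (23.5%). Higher in the striatum than in the hippocampus in all 3 were 9 endothelial genes, Flt1, Esam, Emcn, Ly6c1, Slco1a4, Abcb1a, Eng, Ackr1 and Apln, with Rgs5, Higd1b and Cspg5 (20.7%), and Acta2 was lower (21.8%). The part of Cadm3 reads in the values of Ackr1 was not tested.

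The effect of the Shank3 genotype was tested within each region. Of the 35 genes, only 1 passed the test in any of the comparisons of genotypes, Tagln, which was higher in the striatum of Shank3-HM mice than in that of WT mice, a comparison in which 0.182% of the 16482 genes tested passed.

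Tagln (chromosome 9, 45929619 to 45936058, minus strand) encodes transgelin, which binds actin filaments in smooth muscle. Tagln in the striatum was at 231, 307, 239, 253 and 228 normalized counts in the 5 WT samples, at 327, 357, 246, 256 and 266 in the Shank3-HT samples and at 376, 414, 402, 394 and 339 in the Shank3-HM samples. Tagln in the cortex was at 239, 162, 196, 148 and 341 normalized counts in the 5 WT samples, at 186, 126, 208, 138 and 242 in the Shank3-HT samples and at 201, 132, 114, 171 and 328 in the Shank3-HM samples. Tagln in the hippocampus was at 339, 412, 164, 478 and 305 normalized counts in the 5 WT samples, at 303, 367, 378, 329 and 150 in the Shank3-HT samples and at 258, 390, 361, 203 and 187 in the Shank3-HM samples. In the striatum all 5 Shank3-HM samples lay above all 5 WT samples, and 4 of the 5 lay above all Shank3-HT samples, while the groups overlapped in the cortex and hippocampus. The striatal means were 385 ± 29.1 in Shank3-HM, 291 ± 48.6 in Shank3-HT and 252 ± 32.3 in WT samples, and the difference between Shank3-HM and WT samples was 0.62 ± 0.111 (adjusted p = 0.0221, 153% of the WT level). It was 0.42 ± 0.111 between Shank3-HM and Shank3-HT samples (adjusted p = 0.321) and 0.20 ± 0.111 between Shank3-HT and WT samples (adjusted p = 0.737). In the cortex and hippocampus the differences between Shank3-HM and WT samples were -0.24 ± 0.269 and -0.26 ± 0.290. The effect in the striatum minus that in the cortex was 0.85 ± 0.368 (adjusted p = 0.850), and minus that in the hippocampus 0.87 ± 0.368 (adjusted p = 0.854), so that a difference between regions was not shown.

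Myh11 in the striatum was at 311, 474, 382, 427 and 350 normalized counts in the 5 WT samples, at 355, 436, 414, 345 and 420 in the Shank3-HT samples and at 256, 469, 515, 475 and 332 in the Shank3-HM samples. Myh11 and Acta2, the other contractile genes, overlapped between genotypes there, with differences between Shank3-HM and WT samples of 0.042 ± 0.164 and 0.085 ± 0.151. The ratio of Tagln to Acta2 within a sample was 0.975 to 1.51 in Shank3-HM samples and 0.671 to 0.840 in WT samples of the striatum, and that of Tagln to Myh11 was 0.780 to 1.47 and 0.593 to 0.743. Both ratios were higher in Shank3-HM samples, by 0.53 and 0.58 on the log2 scale, with an exact permutation p = 0.00794 each, the smallest that 5 against 5 samples allow, and 0.0476 after adjustment over the 12 ratios tested, which were chosen after the values were seen. All 5 Shank3-HM samples of Tagln already lay above all 5 WT samples, and both ratios share Tagln. These p values are therefore not separate support for its call. The ratio of Acta2 to Myh11 differed by 0.04 (exact permutation p = 0.643). In the cortex and hippocampus the ratio of Tagln to Acta2 differed by -0.04 and 0.00 (exact permutation p = 0.865 and 1).

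The call of Tagln was near the threshold. Its difference was 0.58 to 0.69 when each striatum sample was left out in turn, but it no longer passed the test without WT sample 1, 3, 4 or 5 or Shank3-HM sample 2, 3 or 4, with adjusted p = 0.0598 to 0.0837, nor when the intensity trend was left out of the fit (adjusted p = 0.0522). Tagln overlaps a pair of measured genes on the opposite strand, Pcsk7, with 848 to 934 normalized counts in WT and 858 to 994 in Shank3-HM samples of the striatum, and Gm48529, with 49.1 to 68.3 and 48.0 to 61.1. The sum of the fibroblast and meningeal genes was 1692 to 2288 in these WT samples and 1474 to 2052 in the Shank3-HM samples.

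Ackr1 (chromosome 1, 173331886 to 173333750, minus strand) encodes a chemokine-binding receptor of venules and red blood cells. Ackr1 in the striatum was at 717, 825, 724, 753 and 743 normalized counts in the 5 WT samples, at 745, 843, 791, 835 and 643 in the Shank3-HT samples and at 864, 946, 932, 982 and 948 in the Shank3-HM samples. Ackr1 in the cortex was at 840, 845, 727, 748 and 898 normalized counts in the 5 WT samples, at 807, 766, 705, 724 and 822 in the Shank3-HT samples and at 759, 724, 733, 714 and 688 in the Shank3-HM samples. Ackr1 in the hippocampus was at 647, 528, 582, 582 and 598 normalized counts in the 5 WT samples, at 636, 583, 573, 595 and 634 in the Shank3-HT samples and at 570, 613, 573, 617 and 578 in the Shank3-HM samples. In the striatum all 5 Shank3-HM samples (934 ± 43.4) lay above all WT samples (752 ± 43.1) and all Shank3-HT samples (771 ± 81.7), and in the cortex the Shank3-HM samples had the lowest mean, 724 ± 26.2 against 812 ± 71.7 in WT samples. The difference between Shank3-HM and WT samples was 0.31 ± 0.0713 in the striatum (adjusted p = 0.117) and -0.16 ± 0.0666 in the cortex (adjusted p = 0.878). The striatal difference passed the test (adjusted p = 0.0342) when Shank3-HT sample 5, which holds choroid plexus genes, was left out of the fit. The effect of the Shank3-HM genotype in the striatum minus that in the cortex was 0.47 ± 0.0900 and passed the test (adjusted p = 0.0129), in a comparison in which 0.0539% of 16708 genes passed, and its adjusted p stayed between 0.00730 and 0.0477 under all alternatives tried.

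The Ackr1 gene partly overlaps, on the same strand, Cadm3, which encodes an adhesion protein of neurons, and reads of the 2 genes could have been mixed. Cadm3 in the striatum was at 10682, 11095, 10234, 10828 and 10862 normalized counts in WT samples, at 10461, 9716, 9859, 10652 and 9022 in Shank3-HT samples and at 11854, 11253, 11872, 12110 and 12454 in Shank3-HM samples, so that its Shank3-HM samples too lay above all others. Its difference between Shank3-HM and WT samples was 0.15 ± 0.0480 (adjusted p = 0.411), and between Shank3-HM and Shank3-HT samples 0.26 ± 0.0480 (adjusted p = 0.0330). Ackr1 was at 6.71% to 7.44% of Cadm3 in WT samples of the striatum and at 7.29% to 8.41% in Shank3-HM samples, where Shank3-HT samples had 7.12% to 8.67% and overlapped both. Between Shank3-HM and WT samples this was a difference of the ratio of 0.16 on the log2 scale (exact permutation p = 0.0159, adjusted p = 0.0635 over the 12 ratios). The effect of the Shank3-HM genotype on Cadm3 in the striatum minus that in the cortex was 0.26 ± 0.0775 (unadjusted p = 0.00187, adjusted p = 0.441 in limma). The part of Cadm3 reads in the Ackr1 result was not tested.

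**Figure D3:**
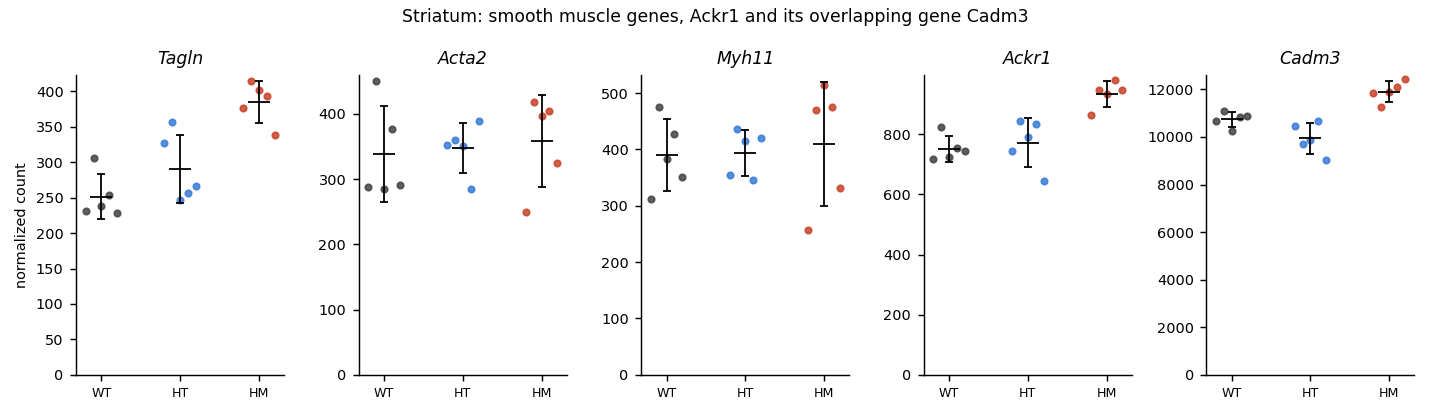
Normalized counts in the striatum by genotype for Tagln, Acta2, Myh11, Ackr1 and Cadm3, with points for samples and bars for the mean ± SD of 5 samples. Tagln, Ackr1 and Cadm3 of Shank3-HM samples lie above all WT samples, and Acta2 and Myh11 overlap between genotypes.

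The remaining comparisons of genotypes had no gene of the list past the test in limma. In the striatum these were Shank3-HM against Shank3-HT mice, in which 0.140% of all genes passed, and Shank3-HT against WT mice, in which 0.00607% passed. At an unadjusted p under 0.05 were 5 and 2 of the 35 genes, and 6.49% and 7.43% of all genes. The smallest p of the list had Ackr1 (0.28 ± 0.0713, adjusted p = 0.272) and Apln (0.18 ± 0.0781, adjusted p = 0.659), respectively. In the cortex 0.0121% of 16507 genes passed between Shank3-HM and WT mice, 0.00606% between Shank3-HM and Shank3-HT mice and 0% between Shank3-HT and WT mice, with 11, 9 and 2 of the 35 genes, and 5.49%, 4.87% and 2.68% of all genes, at an unadjusted p under 0.05. Apln had the smallest p between Shank3-HM and Shank3-HT mice (-0.27 ± 0.0596, adjusted p = 0.959) and Emcn between Shank3-HT and WT mice (-0.30 ± 0.117, adjusted p = 1). In the hippocampus 0.00603% of 16571 genes passed between Shank3-HM and WT mice, 0.00603% between Shank3-HM and Shank3-HT mice and 0.00603% between Shank3-HT and WT mice, with 1, 1 and 0 of the 35 genes, and 4.73%, 2.09% and 5.26% of all genes, at an unadjusted p under 0.05. Here Cldn5 had the smallest p between Shank3-HM and Shank3-HT mice (-0.23 ± 0.0796, adjusted p = 1) and Erg between Shank3-HT and WT mice (-0.25 ± 0.139, adjusted p = 0.926).

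In the cortex, 22 of the 26 endothelial genes and 8 of the 8 mural genes other than Cspg5 had a negative difference between Shank3-HM and WT mice, with medians of -0.15 and -0.22, where 8406 of 16507 genes were negative with a median of -0.0025. Without the pair of libraries that stand apart, of which the cortex sample 2 of Shank3-HM mice is in this comparison, 22 and 8 were negative, with medians of -0.13 and -0.15. Apln had the smallest p of the list, with all 5 Shank3-HM samples, from 760 to 815, below all WT samples, from 852 to 1053, and below all Shank3-HT samples, from 899 to 1009. Its difference from WT samples was -0.26 ± 0.0596 (unadjusted p = 3.63e-04, adjusted p = 0.878 in limma). Apln and Pdgfrb were the genes of the list whose Shank3-HM samples all lay below the WT samples, as did those of 0.412% of all genes, and none lay above, as did those of 0.388%. Kdr was at 371 ± 38.5 in Shank3-HM and 478 ± 68.7 in WT samples (-0.36 ± 0.0927), Slco1a4 at 1579 ± 132 and 1936 ± 246 (-0.29 ± 0.0865), and Slco1c1 at 1524 ± 65.1 and 1765 ± 138 (-0.21 ± 0.0574), each with an adjusted p = 0.878 in limma. The 13 fibroblast and meningeal genes were all negative as well, with a median of -0.34, and their summed level was 2153 to 4780 in Shank3-HM and 3469 to 5049 in WT samples. The sum of the 6 astrocyte genes was 114220 to 146212 in Shank3-HM and 129539 to 157938 in WT samples, and both Shank3-HM ranges were the same without sample 2. The part of these cell types in the vessel values was not tested.

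In the hippocampus, 19 of the 26 endothelial genes and 5 of the 8 mural genes had a negative difference between Shank3-HM and WT mice, with medians of -0.063 and -0.12, where 8040 of 16571 genes were negative with a median of 0.0037. Cldn5 had the smallest p of the list (unadjusted p = 3.85e-04, adjusted p = 0.732 in limma) and was the gene whose Shank3-HM samples all lay below the WT samples, as did those of 0.266% of all genes. None of the 35 lay above, as did those of 0.471%. Sox18, a transcription factor of endothelial cells, was at 165 ± 36.9 in Shank3-HM and 208 ± 45.7 in WT samples (-0.34 ± 0.201, adjusted p = 0.920 in limma). The sums of choroid plexus genes were 6489 to 62854 in Shank3-HM, 1431 to 35027 in Shank3-HT and 3341 to 127354 in WT samples.

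In the striatum, 18 of the 26 endothelial genes and 3 of the 8 mural genes had a negative difference between Shank3-HM and WT mice, with medians of -0.093 and 0.026, where 8192 of 16482 genes were negative with a median of 0.0007. Tagln and Ackr1 were the genes whose Shank3-HM samples all lay above the WT samples, as did those of 1.11% of all genes, and none lay below, as did those of 0.753%. After these, Cldn5 had the smallest p of the list. Slco1c1 was at 1602 ± 69.7 in Shank3-HM and 1776 ± 113 in WT samples (-0.15 ± 0.0679) and Sox18 at 151 ± 39.4 and 203 ± 48.7 (-0.44 ± 0.207), with adjusted p = 0.658 and 0.670 in limma. Kdr was at 349 ± 36.0 in Shank3-HM and 431 ± 20.8 in Shank3-HT samples, a difference of -0.31 ± 0.0830 (adjusted p = 0.333 in limma).

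Between Shank3-HM and WT mice, 17 of the 26 endothelial genes and Pdgfrb were negative in all 3 regions, as were 14.9% of all genes, and 4 endothelial genes were positive in all 3, as were 15.4%. None of these passed the test. With 1 sample left out, 9 of the 18 negative genes turned positive in at least 1 region (Pecam1, Kdr, Tek, Tie1, Esam, Slco1a4, Eng, Erg and Pdgfrb), as did 3 of the 4 positive genes in the other direction (all but Mfsd2a). Of the negative genes, Cldn5 differed by -0.28, -0.35 and -0.27, Sox18 by -0.42, -0.34 and -0.44, Sox17 by -0.30, -0.24 and -0.44 and Flt1 by -0.17, -0.055 and -0.13 in the cortex, hippocampus and striatum. The striatal difference of Sox17 rested on Shank3-HM sample 5, with 61.7 normalized counts where the other 4 had 164 to 217, and was -0.13 without it. The positive genes were Ly6c1 (0.032, 0.096 and 0.11), Ly6a (0.026, 0.0064 and 0.10), Slc2a1 (0.061, 0.12 and 0.15) and Mfsd2a (0.13, 0.099 and 0.045). The WT samples of each region are a separate set of libraries, but they may come from the same mice. The agreement of signs between regions was therefore not shown to be independent. Cspg5 differed by -0.14, 0.0016 and -0.14.

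**Figure D4:**
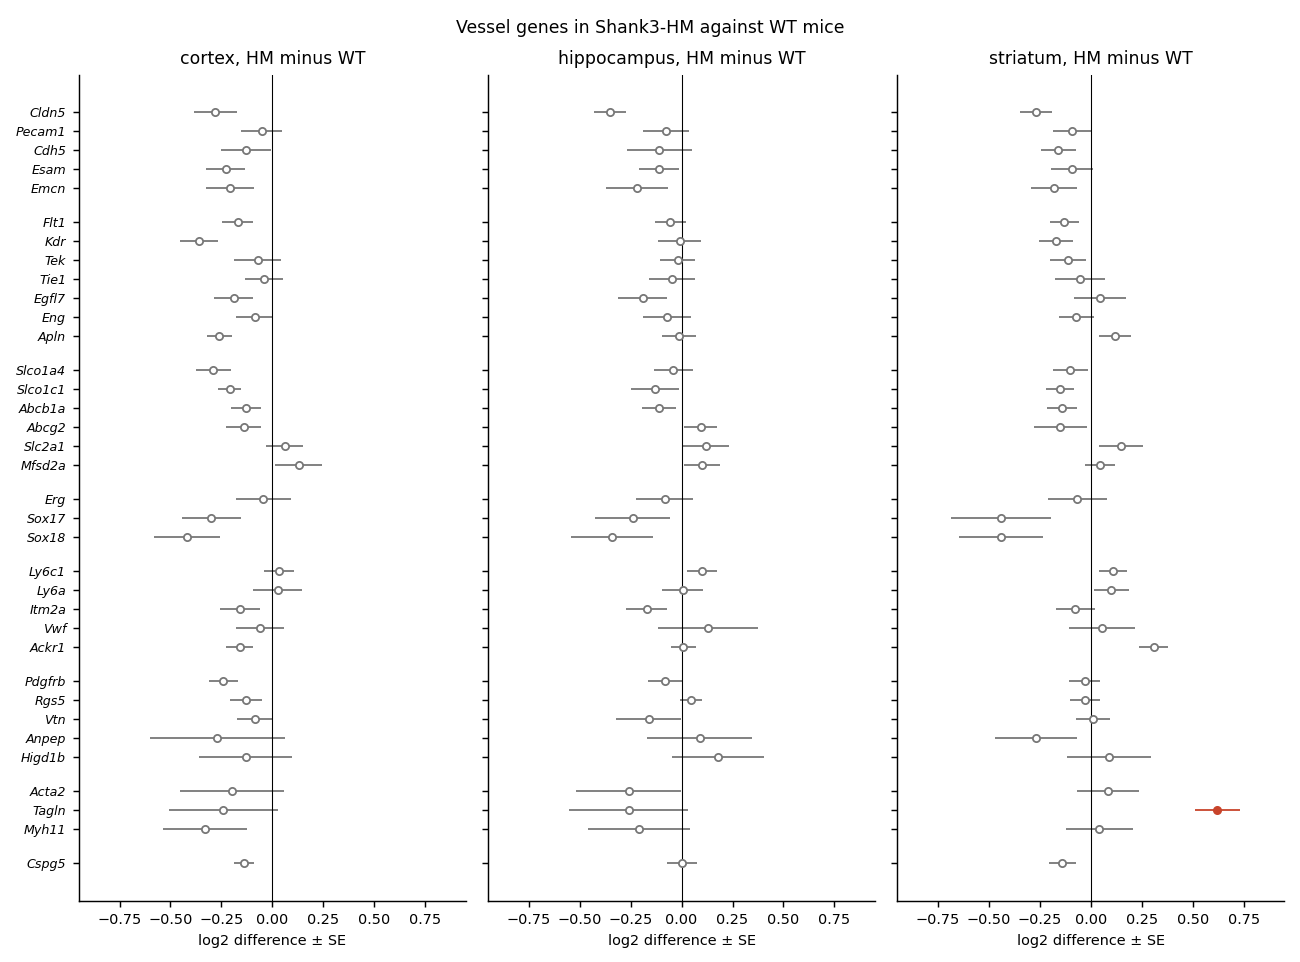
Log2 differences between Shank3-HM and WT samples in each region, with standard errors, for the 35 genes grouped by role as in the plot of regions. The filled red point, Tagln in the striatum, is the one that passed the test. Cldn5, Sox17 and Sox18 lie left of 0 in all 3 regions.

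The genotype effects were compared between regions in the fit of all 9 groups. Besides Ackr1 between striatum and cortex, no gene of the list passed in limma. For the Shank3-HM effect, 0% of all genes passed between hippocampus and cortex, with 2 of the 35 genes and 4.45% of all genes at an unadjusted p under 0.05, and 0.0718% passed between striatum and hippocampus, with 2 of the 35 and 5.37%. Between striatum and cortex 3 of the 35 genes and 5.42% of all genes were at an unadjusted p under 0.05. For the Shank3-HT effect 0% of all genes passed in each of the 3 pairs of regions, with 0 of the 35 genes at an unadjusted p under 0.05, where 3.35% (hippocampus minus cortex), 3.46% (striatum minus cortex) and 5.60% (striatum minus hippocampus) of all genes were. The smallest p of the list had Kdr (0.35 ± 0.135, Shank3-HM, hippocampus minus cortex), Ackr1 (0.30 ± 0.0900, Shank3-HM, striatum minus hippocampus), Erg (-0.31 ± 0.201, Shank3-HT, hippocampus minus cortex), Apln (0.17 ± 0.104, Shank3-HT, striatum minus cortex) and Slco1c1 (0.24 ± 0.127, Shank3-HT, striatum minus hippocampus). Apln, whose Shank3-HM samples were lower in the cortex and at 887 ± 61.4 against 814 ± 55.6 of WT samples in the striatum, followed, with 0.39 ± 0.104 between striatum and cortex (adjusted p = 0.240).

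Co-variation among samples was examined on the deviations from the mean of genotype and region, over the 15 samples of a region. Of 33 relations computed, 24 were planned and 9 were chosen after the values were seen, and p values are two-sided from 100000 permutations within genotypes, adjusted over the 33. Acta2 and Myh11 varied together in each region, with r = 0.92 and rho = 0.91 in the cortex (permutation p = 2e-05 and 5e-05, adjusted p = 4.9e-04 and 0.0016), r = 0.85 and rho = 0.85 in the hippocampus (permutation p = 1.2e-04 and 4.4e-04, adjusted p = 0.0013 and 0.0051) and r = 0.89 and rho = 0.87 in the striatum (permutation p = 4.4e-04 and 6.2e-04, adjusted p = 0.003 and 0.0051). Without the 2 samples farthest from the median of Acta2, r was 0.90, 0.80 and 0.83. Acta2 and Tagln varied together in the cortex (r = 0.84, rho = 0.82, permutation p = 4.5e-04 and 0.0011, adjusted p = 0.003 and 0.0069, r = 0.79 without 2 samples) and hippocampus (r = 0.93, rho = 0.85, permutation p = 3e-05 and 4.8e-04, adjusted p = 4.9e-04 and 0.0051, r = 0.88 without 2 samples). In the striatum their r was 0.56 and rho 0.61 (permutation p = 0.02 and 0.012, adjusted p = 0.066 and 0.051, r = 0.51 without 2 samples).

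None of the planned relations of endothelial and pericyte genes passed after adjustment. Cldn5 and Pecam1 had r = 0.70 and rho = 0.62 in the cortex (permutation p = 0.019 and 0.042, adjusted p = 0.066 and 0.13, r = 0.56 without 2 samples), and Cldn5 and Flt1 had r = -0.58 and rho = -0.34 in the hippocampus (permutation p = 0.03 and 0.23, adjusted p = 0.085 and 0.40, r = -0.42 without 2 samples). Pdgfrb and Rgs5 had r of 0.33 to 0.43 in the 3 regions, with adjusted permutation p of 0.28 to 0.40. Acta2 also varied with the sum of the fibroblast and meningeal genes, a relation chosen after the values were seen, with r = 0.82 and rho = 0.77 in the cortex (permutation p = 7.7e-04 and 0.0036, adjusted p = 0.0042 and 0.017, r = 0.66 without 2 samples) and r = 0.81 and rho = 0.80 in the hippocampus (permutation p = 0.0013 and 0.0013, adjusted p = 0.0061 and 0.0069, r = 0.74 without 2 samples). In the striatum it had r = 0.44 and rho = 0.52 (permutation p = 0.031 and 0.039, adjusted p = 0.085 and 0.13). Ackr1 and Pecam1 had r = -0.25 (cortex), -0.30 (hippocampus) and 0.04 (striatum), with rho of -0.25, -0.27 and 0.26 and r of -0.58, -0.25 and 0.48 without 2 samples. Ackr1 and Cadm3 had r = 0.35, -0.19 and 0.58 in the same order, with rho of 0.34, -0.16 and 0.39 and r of 0.51, 0.13 and 0.22 without 2 samples, so that these values rest on few samples. The adjusted permutation p of both pairs were 0.21 to 0.96.

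**Figure D5:**
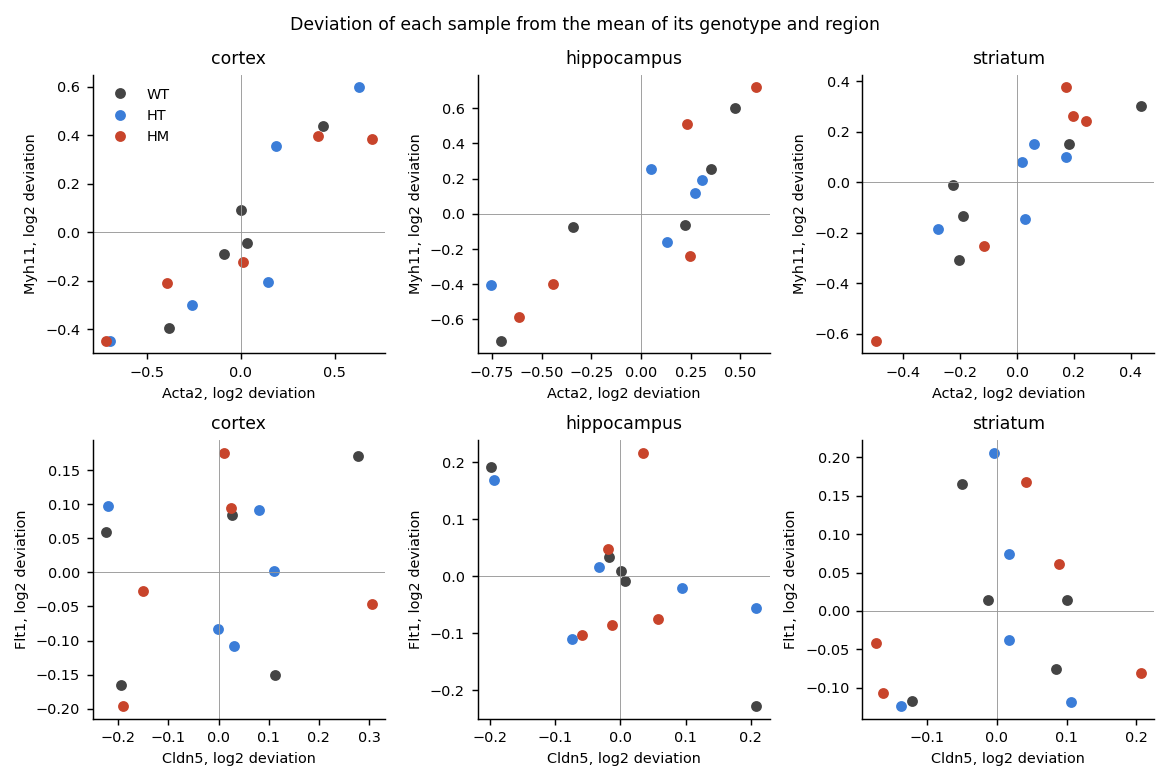
Deviation of each sample from the mean of its genotype and region on the log2 scale, for Acta2 and Myh11 (top) and Cldn5 and Flt1 (bottom), with colours for genotypes. The samples lie along a line for Acta2 and Myh11 in all 3 regions (r = 0.92, 0.85 and 0.89), and r was 0.23, -0.58 and 0.14 for Cldn5 and Flt1.

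Beyond the 35 genes, 120 further genes of vessel pathways were listed, of which 116 to 118 were tested per fit. None passed the test between genotypes within a region. Between Shank3-HM and WT mice, 73 of 116 were negative for cortex, 63 of 118 for hippocampus and 67 of 116 for striatum, with medians of -0.032, -0.014 and -0.026, and 13, 6 and 13 had an unadjusted p under 0.05, as did 5.49%, 4.73% and 7.43% of all genes. In limma the Shank3-HM effect on Tpm1, a tropomyosin gene listed with smooth muscle but expressed in many cells, was larger in the striatum than in the hippocampus by 0.40 ± 0.0825 (adjusted p = 0.0383). Tpm1 was at 10990 ± 514 in Shank3-HM and 8769 ± 360 in WT samples of the striatum (0.33 ± 0.0681, adjusted p = 0.0669), and at 3990 ± 232 and 4198 ± 173 in the hippocampus.

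Between regions of WT mice these pathway genes passed in both directions. In the hippocampus 24 of 117 were higher and 24 lower than in the cortex (23.3% and 23.3% of all genes), in the striatum 23 were higher and 32 lower than in the cortex (30.0% and 29.3%), and 27 were higher and 35 lower than in the hippocampus (27.8% and 28.3%). Of the 11 tested genes for ligands and partners of VEGF, angiopoietin and apelin, 5 were higher and 3 lower in the hippocampus than in the cortex, among them the VEGF co-receptor genes Nrp1 (1789 ± 217 against 497 ± 84.2, 1.85 ± 0.0954, adjusted p = 4.59e-20) and Nrp2 (2542 ± 220 against 623 ± 72.8, 2.03 ± 0.212, adjusted p = 8.63e-11), which neurons also express. Vegfa, the ligand of Flt1 and Kdr, was lower in the hippocampus (1464 ± 69.6 against 2152 ± 122, -0.56 ± 0.0652, adjusted p = 1.61e-09). Of the 9 Notch pathway genes 4 were higher and 1 lower in the striatum than in the cortex. In the striatum Lmo2, a partner of endothelial transcription factors (1771 ± 263 against 297 ± 29.7, 2.56 ± 0.112, adjusted p = 1.94e-22), was higher than in the cortex, and the caveolar gene Cav2 (416 ± 48.1 against 1093 ± 30.5, -1.40 ± 0.0824, adjusted p = 1.97e-18) and the carbonic anhydrase gene Car4 (210 ± 10.1 against 911 ± 104, -2.11 ± 0.126, adjusted p = 2.81e-18) were lower. These genes are not limited to vessels, and the share of their reads that comes from vessel cells was not tested.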

How the data were processed

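Transcripts were measured by stranded mRNA sequencing in 45 samples, 5 for each genotype and region. The deposited values are a signal, normalized counts per gene, which the authors made with Salmon 1.1.0 on GRCm38, summed to genes and normalized over all samples with DESeq2 (1.26.0, in R 3.6.2, per the submitters' processing notes). They are not raw counts: at a tolerance of 0.1, 15.9% to 40.6% of low values per sample lay near whole multiples of 1 step, where chance gives 20%, so that whole reads were not recovered, no counting interval is given and depth is unknown. No 2 samples held identical values.

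Genes with a mean of at least 10 were fitted with limma 3.58.1 (R 4.3.3) on log2(value + 1) with an intensity trend, within a region for genotypes and over the 9 groups for regions and for the difference of effects, with Benjamini-Hochberg adjustment at 0.05. The fits were tested on simulated data with 200 genes changed between Shank3-HM and WT samples. For cortex, hippocampus and striatum, 82%, 81% and 92% of log2 changes of 1 were recovered. Of log2 changes of 0.5, 64%, 64% and 59% were. False calls were 10 of 156, 14 of 159 and 8 of 159. Ratios and co-variation were tested by permutation with scipy 1.17.1 (numpy 2.4.6, pandas 2.3.3, in Python 3.11.15), and figures were drawn with matplotlib 3.10.9. Symbols and positions were taken from GENCODE M21 (18120 of 18135 identifiers matched). The alternatives were quantile normalization, median scaling, no filter, a filter at a mean of 100, 0.1 as the pseudocount, no trend, the compared groups alone, a replicate block, each sample left out in turn and, added after the values were seen, the cortex sample 2 of Shank3-HM and the striatum sample 5 of Shank3-HT left out together. The columns that the files name KI were taken as the homozygous samples.

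The members and lists were chosen with earlier results of these data known. All 35 members were described by role, 6 leading markers with the value in every sample, and in each comparison the member with the smallest p and those that passed. Of other vessel lists, counts are given with at most 5 of the genes that passed.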

Additional observations from a re-analysis of the deposited data

Results flagged for a closer look

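In 315 groups of 5 samples (35 genes in 9 groups), 16 samples stood apart from the other 4 of their group by Dixon's criterion, and chance flags about 1 in 20 groups. Erg, an ETS factor of endothelial cells, stood apart in 3 groups, with 229 normalized counts in cortex sample 4 of Shank3-HM mice (the others at 150 to 165), 186 in hippocampus sample 2 of WT mice (124 to 140) and 130 in striatum sample 5 of Shank3-HM mice (166 to 170). The same cortex sample had Rgs5 at 3584 (the others at 2942 to 3088), and the same hippocampus sample had it at 3122 (2581 to 2736).

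Other endothelial values of this kind in the hippocampus were Tek at 323 in Shank3-HM sample 5 (the others at 385 to 396), Esam at 393 in WT sample 4 (307 to 331), Egfl7 at 768 in WT sample 1 (513 to 572), Ly6c1 at 800 in Shank3-HT sample 3 (716 to 729) and Abcg2 at 445 in Shank3-HT sample 5 (529 to 553). In the cortex they were Abcg2 at 611 in WT sample 3 (542 to 555) and Mfsd2a at 852 in Shank3-HT sample 3 (665 to 716). Of the mural genes, Anpep was at 179 in striatum sample 3 of WT mice (81.8 to 103) and Higd1b at 21 in hippocampus sample 4 of Shank3-HT mice (33.9 to 38.3). Cspg5 was at 7935 in cortex sample 1 of Shank3-HM mice (6903 to 7160) and at 5345 in striatum sample 5 of Shank3-HT mice (6040 to 6156), the library that holds choroid plexus genes.

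The effect of the Shank3-HM genotype on Ackr1 differed between striatum and cortex, by 0.47 on the log2 scale in the test of that difference (limma, adjusted p = 0.0129).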

How the results depend on the processing

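The values are limited by 5 samples per group and by an unknown depth, and the spread was widest for Anpep and the smooth muscle genes. Of the 35 genes, 1 passed between Shank3-HM and WT mice in the striatum. This count was 0 with no intensity trend and 2 without the pair of libraries that stand apart, and 0 to 2 when each sample was left out in turn. The added gene was Ackr1, which passed without the striatum sample 5 of Shank3-HT mice (adjusted p = 0.0342 in limma). Over all genes the same comparison had 26 higher and 4 lower calls, 15 and 3 with no trend, 23 and 8 with quantile normalization and 30 and 9 with the replicate block. Shank3-HM against Shank3-HT in the striatum had 17 higher and 6 lower, but 9 and 2 with no trend, 6 and 1 with only the groups compared and 2 and 1 without the pair of libraries. For the difference of Shank3-HM effects, striatum minus cortex had 7 higher and 2 lower, but 4 and 2 with no trend and 15 and 5 with the replicate block, and striatum minus hippocampus 10 and 2, but 6 and 1 with no trend or median scaling and 13 and 4 without the pair of libraries. Comparisons of genotypes in the cortex and hippocampus had 0 to 2 calls. Tagln differed by 0.58 to 0.69 over its 24 alternatives, with adjusted p of 0.00992 to 0.0837 in limma, and passed in 16 of them. Whether samples of a number are paired was not settled. Of pairs with the same genotype and number in 2 regions, 16 of 45 correlated over 0.1. Their median r was 0.0672, where samples of other numbers had -0.0158. Of pairs with the same region and number in 2 genotypes, 7 of 45 did, with medians of 0.0216 and -0.00526. Fits without a block treat the samples as independent. With the replicate block Tagln had an adjusted p of 0.00992, and 15, 5 and 19 of the 35 genes passed between hippocampus and cortex, striatum and cortex, and striatum and hippocampus of WT mice, where 15, 4 and 17 did without it.

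The direction changed in some results, all small and uncalled, and the cause was not tested. Without the pair of libraries, Flt1 and Rgs5 between Shank3-HT and WT mice in the striatum were 0.0089 and 0.0014. With quantile normalization, Pecam1 between striatum and cortex was 0.0093 and Rgs5 between Shank3-HM and Shank3-HT mice in the hippocampus 0.0098. With each sample left out in turn, differences in the cortex ranged from -0.13 to 0.22 for Acta2 between Shank3-HM and Shank3-HT, from -0.052 to 0.031 for Flt1 between Shank3-HT and WT, and for Pecam1 from -0.061 to 0.06 (Shank3-HM and Shank3-HT), from -0.13 to 0.02 (Shank3-HM and WT) and from -0.12 to 0.013 (Shank3-HT and WT). In the hippocampus they ranged from -0.26 to 0.11 for Acta2 and from -0.035 to 0.07 for Flt1 (both Shank3-HT and WT), from -0.082 to 0.026 for Pdgfrb and from -0.025 to 0.027 for Rgs5 (both Shank3-HM and Shank3-HT), and for Pecam1 from -0.086 to 0.02 (Shank3-HM and Shank3-HT), from -0.14 to 0.028 (Shank3-HM and WT) and from -0.10 to 0.053 (Shank3-HT and WT). In the striatum they ranged between Shank3-HT and WT from -0.00025 to 0.17 for Acta2, -0.0013 to 0.064 for Cldn5, -0.052 to 0.041 for Flt1, -0.085 to 0.038 for Pecam1 and -0.062 to 0.029 for Rgs5, between Shank3-HM and WT from -0.075 to 0.0069 for Pdgfrb and -0.083 to 0.017 for Rgs5, and between Shank3-HM and Shank3-HT from -0.042 to 0.15 for Acta2 and -0.057 to 0.025 for Rgs5. Between striatum and cortex of WT mice they ranged from -0.20 to 0.023 for Acta2, -0.098 to 0.033 for Pecam1 and -0.064 to 0.029 for Rgs5, and between striatum and hippocampus from -0.097 to 0.0048 for Cldn5. Cldn5 between striatum and cortex passed without cortex WT sample 1 or 2 (adjusted p = 0.0384 and 0.0302 in limma).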
